A study of Oryza sativa with 12 samples.

Results

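The genotype by salt interaction was examined in rice leaves, gene by gene, as the salt response of the introgression line IL22 minus the salt response of its parent OLESA. A positive interaction log2 FC means that the expression of a gene moved further up, or less far down, with salt in IL22 than in OLESA, and a negative one means the opposite. A gene was kept when the sign of its interaction was the same in 13 fits, that is, in the fit of all 12 libraries and in the 12 fits that each left out 1 library. This held for 15546 of 20760 features tested (74.9%), out of 36844 features in the count table, with 7892 positive and 7654 negative. Of these, 1036 reached an adjusted p of 0.05 (edgeR quasi-likelihood test with Benjamini-Hochberg adjustment), which is 4.99% of the features tested. These are the called genes below.

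RNA-Seq was carried out on 4 groups with 3 replicates each, and each replicate pooled the leaves of 4 plants. The groups were IL22 treated with 80 mM NaCl for 24 h, IL22 without added NaCl, OLESA treated with 80 mM NaCl for 24 h and OLESA without added NaCl. IL22 carries segments of the salt-tolerant *indica* line FL478, with the Saltol locus of Chromosome 1, in the background of OLESA, a salt-sensitive *japonica* rice. It is a single line, so an effect of its segments and any other difference between this line and its parent cannot be told apart. The labels name the parent PL12, here read as OLESA.

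In rice, salt in the nutrient solution first lowers the water available to the plant and then loads the shoot with Na+, and leaves answer with changes in ion and water transport, hormone signalling, redox balance and growth. Tolerant *indica* donors of the Saltol type keep the ratio of Na+ to K+ in the shoot low. An interaction asks which genes respond to the salt differently in the introgression line and in the parent, which is another question than which genes differ between the lines in either condition. The files do not pair the locus IDs with gene names, and 1 of 36844 IDs matched the gene table at hand, which belongs to another assembly. For this reason no gene function, pathway list, leaf marker or sequence is given, and the identity of the tissue rests on the labels.

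Total counts ran from 11505396 to 23578477 per library, and TMM factors from 0.845 to 1.12. Within groups, the log2 CPM of replicates correlated across genes at r between 0.950 and 0.981, except in IL22 control, where replicate 1 correlated at 0.942 with replicate 2 and at 0.937 with replicate 3, against 0.966 between these other libraries. Replicate 1 of IL22 control therefore stands apart from its group. For the called genes as a whole, response and non-overlap counts that involve IL22 control are given with and without it. Of the class counts, those of genes with opposite salt responses or opposite genotype differences are given both ways. The other class counts are mostly given with all libraries only. For smaller sets of them, such counts are given with all libraries only. Every library came from its own set of plants, so the p-values reflect the spread between such sets. In leaf tissue, fewer cells of a type and less RNA per cell cannot be told apart.

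With all libraries, more genes had a negative than a positive interaction, but this majority was not kept in the reduced fits with the fewest calls. There were 297 positive genes (1.43% of the features tested) and 739 negative genes (3.56%), so that 71.3% of the called genes were negative. Positive calls outnumbered negative ones in 8 of the 12 reduced fits, for example with 17 positive and 8 negative calls without replicate 2 of OLESA control and 15 positive and 5 negative calls without replicate 1 of IL22 salt. These 8 fits called between 19 and 52 features each. In every fit, the calls included the same 18 genes, 14 positive and 4 negative. Negative calls outnumbered positive ones in the other 4 reduced fits, which called between 59 and 4971 features. The median interaction log2 FC was 1.37 for the positive genes and -1.89 for the negative ones. In size, regardless of sign, the called genes had a median of 1.72 and quartiles of 1.29 and 2.37, against a median of 0.52 over all features tested, 0.68 over those that held their direction and 0.12 over those that did not. The median SE was 0.39 for the called genes and 0.39 for all tested features. One of the called genes had no count in a whole group, so no fold is given for it.

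Most calls lay close to the threshold. The smallest adjusted p was 0.00192 (edgeR quasi-likelihood test), 30 of the 1036 genes had an adjusted p of 0.02 or less, and 387 had one above 0.04. The gene just inside the threshold had an adjusted p of 0.0499 at an interaction of 1.01 in size, and the feature just outside had 0.0501 at 1.17. At an adjusted p of 0.1, a level chosen after seeing the data, 2560 features passed. Without adjustment, 5128 features (24.7%) had a p of 0.05 or less.

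The adjusted call of most genes was lost when 1 library was left out. A constant direction was part of the rule for keeping genes and is no sign of stability. An unadjusted p of 0.05 or less with the same sign was reached in all 13 fits by the 1036 called genes, and by 2963 of all tested features (14.3%, 1073 positive and 1890 negative). The number of calls was 4971 without replicate 1 of IL22 control, 1531 without replicate 3 of OLESA salt and 848 without replicate 1 of OLESA control. In each of the other 9 fits, between 19 and 59 features were called. The median adjusted p of the 1036 genes was 0.0382 with all libraries, and it ran from 0.0017 without replicate 1 of IL22 control to 0.0985 without replicate 2 of OLESA control. The median interaction of the negative genes ran from -2.16 without replicate 1 of IL22 control to -1.69 without replicate 3 of that group, and that of the positive genes from 1.28 to 1.53.

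**Figure D1:**
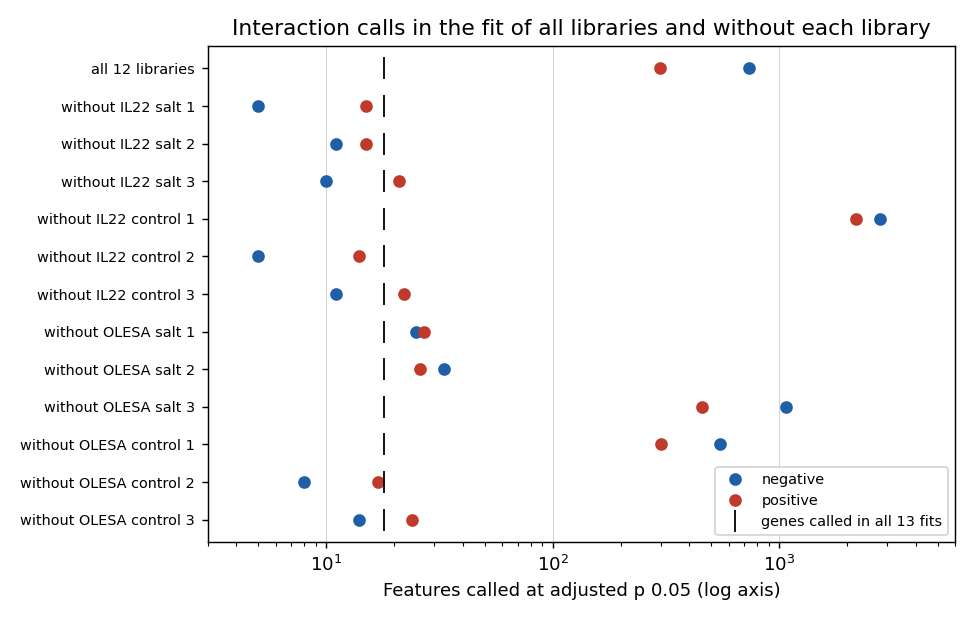
Number of features called for the interaction at an adjusted p of 0.05 (x axis, log scale) with all 12 libraries and without each library in turn (y axis), with positive interactions in red, negative ones in blue and the genes called in all 13 fits as a dash. The count with all libraries is 297 positive and 739 negative, 9 of the 12 reduced fits call between 19 and 59 features, and the fit without IL22 control replicate 1 calls 4971.

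Accordingly, most of the 1036 genes were called in few of the reduced fits. Of the 12 fits, 57 genes were called in 1, 319 in 2, 587 in 3, 55 in between 4 and 11, and 18 in all 12. Among them, 581 were called only in the 3 fits without replicate 1 of IL22 control, replicate 3 of OLESA salt or replicate 1 of OLESA control, and another 280 only in the fits without replicate 1 of IL22 control or replicate 3 of OLESA salt. With replicate 1 of IL22 control left out, 2193 features were positive and 2778 negative, and the share of positive calls was 44.1%, against 28.7% with all libraries.

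The salt response was larger in size in OLESA than in IL22 for most of the called genes, as it was for most of all tested features. Among the 739 negative genes, the median salt response (log2 FC of salt over control) was -0.76 in IL22 and 1.21 in OLESA, the responses had opposite signs in 659, and the response was larger in size in OLESA for 557 and in IL22 for 182. Among the 297 positive genes, the median was 0.44 in IL22 and -0.83 in OLESA, the signs were opposite in 242, and the response was larger in size in OLESA for 203 and in IL22 for 94. Without replicate 1 of IL22 control, the median salt response in IL22 was -1.04 for the negative and 0.60 for the positive genes, the signs were opposite in 674 and 255, and the response was larger in OLESA for 459 and 188 and in IL22 for 280 and 109. Over all tested features, the signs were opposite in 5111 of 10304 with a negative and in 4439 of 10456 with a positive interaction. The response was larger in size in OLESA for 6316 and 6585 of these features. For the called genes without replicate 1, the shares with a larger response in OLESA were close to those of all tested features, which used all libraries. The responses of the called genes are parts of the contrast that defined them, so they are a description and were not tested against the rest.

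**Figure D2:**
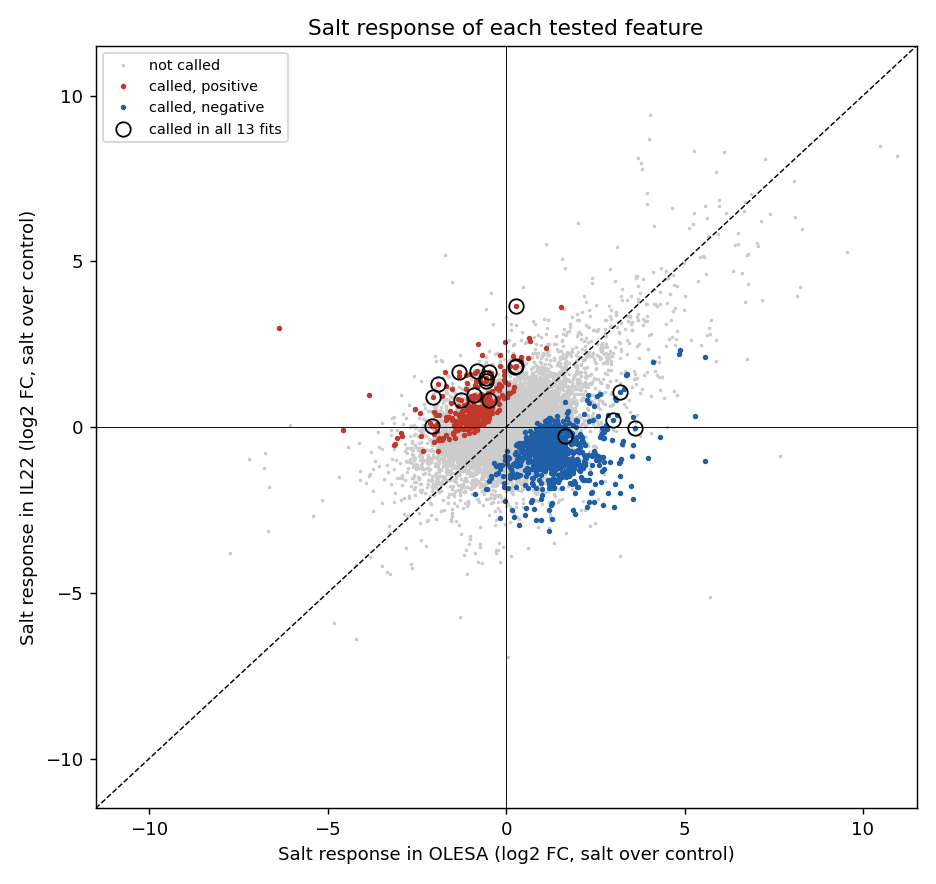
Salt response in IL22 (y axis) against salt response in OLESA (x axis) for each tested feature, both as log2 FC of salt over control, with the 297 positive genes in red, the 739 negative genes in blue, other features in grey and the 18 genes called in all 13 fits ringed. The dashed line marks equal responses. Negative genes gather to the right of the vertical axis and below the horizontal one, with medians of -0.76 in IL22 and 1.21 in OLESA.

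Each called gene was then placed by its response in either genotype, with an unadjusted p of up to 0.05 and a log2 FC beyond 0.5 taken as a response. By this rule, 8.14% of the tested features were up-regulated and 9.82% down-regulated by salt in IL22, and in OLESA these shares were 17.4% up and 15.4% down. Of the 739 negative genes, 330 did not pass in IL22 and were up-regulated in OLESA, 297 were down-regulated in IL22 and up-regulated in OLESA, and 91 were down-regulated in IL22 and did not pass in OLESA. At an adjusted p of 0.05 and the same FC, the salt response passed in 5.17% of the tested features in IL22 and in 21.6% in OLESA, and the class with opposite responses shrank to 20 of the 739 negative genes. Another 534 did not pass in IL22 and were up-regulated in OLESA, 90 were down-regulated in IL22 alone and 84 passed in neither. By the first rule, a further 16 were up-regulated in both, 3 were down-regulated in both and 2 passed in neither.

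The balance of these classes moved with each IL22 control library. Without replicate 1, 491 of the 739 negative genes were down-regulated in IL22 and up-regulated in OLESA and 153 were up-regulated in OLESA alone. Without replicate 2 of IL22 control the numbers were 143 and 482, and without replicate 3 they were 122 and 504. The class with opposite responses also shrank to 181 genes without replicate 1 of IL22 salt and to 178 without replicate 3 of that group. The number of negative genes up-regulated in OLESA, 643 with all libraries, ran from 589 to 661 when each OLESA library was left out. These reduced classes were added after the data were examined.

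Of the 297 positive genes, 159 did not pass in IL22 and were down-regulated in OLESA, 70 were up-regulated in IL22 and down-regulated in OLESA, and 56 were up-regulated in IL22 and did not pass in OLESA. Another 3 were up-regulated in both, 2 were down-regulated in both and 7 passed in neither. At an adjusted p of 0.05 and the same FC, 194 did not pass in IL22 and were down-regulated in OLESA, 11 had opposite responses, 56 were up-regulated in IL22 alone and 33 passed in neither. The class with opposite responses, by the first rule, held 96 genes without replicate 1 of IL22 control, 43 without replicate 2 and 54 without replicate 3.

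The level of the negative genes was set side by side over the libraries. Relative to the OLESA control mean, the median log2 CPM of the 739 negative genes was 0.26, 0.33 and 0.24 in the IL22 salt libraries and 0.05, 1.18 and 1.26 in the IL22 control libraries. It was 1.35, 1.34 and 0.89 in OLESA salt and 0.14, -0.12 and -0.02 in OLESA control. Thus replicates 2 and 3 of IL22 control were about as high for these genes as the salt-treated OLESA libraries, whereas replicate 1 of IL22 control was at the level of OLESA control. Replicate 1 was the IL22 control library nearest to the OLESA control mean in 679 of the 739 genes (91.9%), against 58.3% of all tested features. The group levels are parts of the contrast that defined the genes, so they are a description.

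For the 297 positive genes, the same median was -0.10, -0.10 and -0.08 in IL22 salt and -0.38, -0.76 and -0.66 in IL22 control. In OLESA it was -0.88, -0.87 and -0.79 with salt and -0.14, 0.02 and 0.15 without. The salt-treated IL22 libraries were therefore close to untreated OLESA for these genes, and the untreated IL22 libraries lay on the side of salt-treated OLESA. Here too the group levels are parts of the contrast that defined the genes. Replicate 1 of IL22 control was again the nearest to OLESA control in 201 of 297 genes (67.7%), against 58.3% of all tested features. Whether the state of that library or that of replicates 2 and 3 is the usual one of untreated IL22 was not tested.

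**Figure D3:**
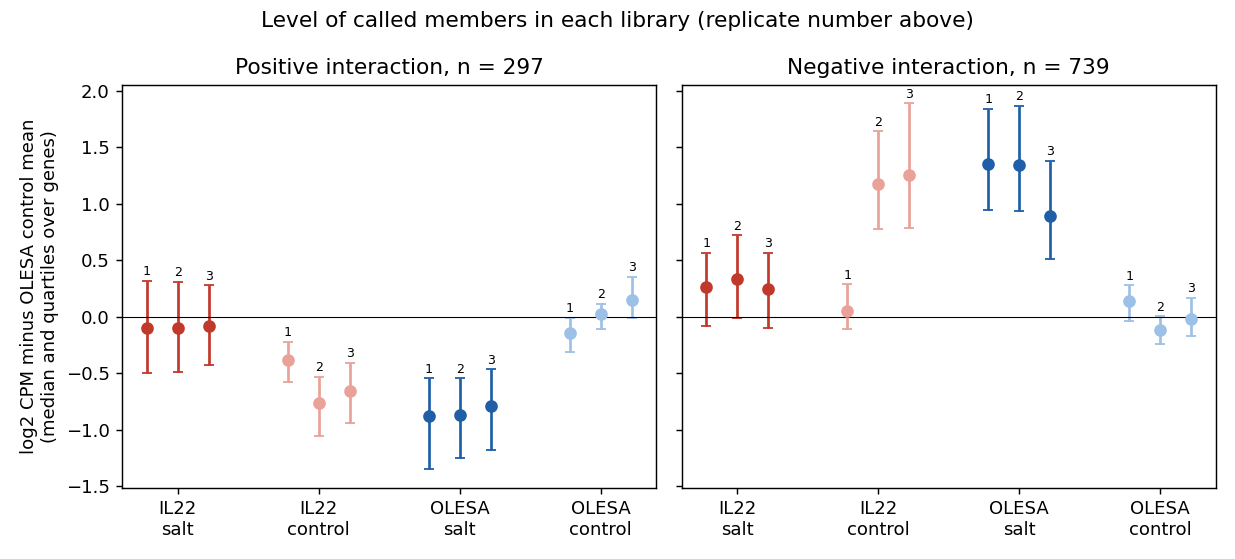
Level of the called genes in each of the 12 libraries, as log2 CPM minus the OLESA control mean (y axis), with the median over genes as a point and the quartiles as bars, for the 297 positive genes on the left and the 739 negative genes on the right. Among the negative genes, replicate 1 of IL22 control sits at 0.05, next to OLESA control, and replicates 2 and 3 sit at 1.18 and 1.26.

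The genotypes were also compared within each condition. By the same rule of p and FC, IL22 was higher than OLESA in 7.5% and lower in 9.77% of the tested features in salt, and higher in 9.93% and lower in 5.68% in control. At an adjusted p of 0.05 and the same FC, the genotypes differed in 2.85% of the features in salt and in 1.38% in control. Of the 739 negative genes, 506 were lower in IL22 in salt and higher in IL22 in control, 149 were lower in salt only, 77 were higher in control only, 2 were lower in both, 1 was higher in both and 4 passed in neither. Of the 297 positive genes, 130 were higher in IL22 in salt and lower in IL22 in control, 103 were higher in salt only, 49 were lower in control only, 1 was higher in both and 14 passed in neither. The negative genes had a median genotype log2 FC (IL22 over OLESA) of -0.97 in salt and 0.95 in control, and the positive genes one of 0.75 in salt and -0.61 in control. Without replicate 1 of IL22 control, 603 of the negative genes were lower in IL22 in salt and higher in control, against 346 without replicate 2 and 292 without replicate 3, and 154, 87 and 106 of the positive genes were higher in salt and lower in control. The median in control was then 1.24 for the negative and -0.73 for the positive genes without replicate 1.

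Groups without overlap between their libraries were counted as well. Of the 739 negative genes, 656 had IL22 salt below OLESA salt (88.8%, against 16.3% of the tested features) and 625 had OLESA salt above OLESA control (84.6%, against 20.04%). Fewer had IL22 salt below IL22 control, with 182 genes (24.6%, against 12.2%), or IL22 control above OLESA control, with 216 genes (29.2%, against 7.47%). Of the 297 positive genes, 281 had IL22 salt above OLESA salt (94.6%, against 15.3%), 242 had OLESA salt below OLESA control (81.5%, against 19.7%), 159 had IL22 salt above IL22 control (53.5%, against 14.2%) and 184 had IL22 control below OLESA control (62.0%, against 8.44%). With replicate 1 of IL22 control left out, IL22 salt was below IL22 control in 645 negative genes (87.3%, against 27.6% of the tested features) and above it in 226 positive genes (76.1%, against 28.1%). IL22 control was then above OLESA control in 693 negative genes (93.8%, against 25.2%) and below it in 249 positive genes (83.8%, against 24.7%). As these comparisons are parts of the interaction, nothing further is read from the shares.

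The 18 genes called in all 13 fits had another balance of directions than the whole. Of them, 14 were positive and 4 negative, with interactions between 1.28 and 3.63 in size, adjusted p from 0.00192 to 0.0109 (edgeR quasi-likelihood test, all libraries) and a largest adjusted p over the reduced fits of 0.0472. Their median SE was 0.29, against 0.39 for the called genes, and their median biological coefficient of variation was 0.191, against 0.242 for the called genes and 0.241 for all tested features. Keeping the call in every fit favours genes with a small spread, so these lower values are bound up with the choice. Replicate 1 of IL22 control was the nearest of its group to the OLESA control mean in 10 of 18 (55.6%), against 58.3% of all tested features.

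In the 14 positive genes, salt mainly raised the level in IL22. The median salt response was 1.43 in IL22 and -0.70 in OLESA, and it was larger in size in IL22 for 10 genes and in OLESA for 4. By the rule of unadjusted p and FC, 8 were up-regulated in IL22 and down-regulated in OLESA, 5 were up-regulated in IL22 and did not pass in OLESA, and 1 did not pass in IL22 and was down-regulated in OLESA. Relative to OLESA control, the median log2 CPM was 0.51, 0.54 and 0.37 in IL22 salt, -0.80, -1.15 and -0.95 in IL22 control, and -0.75, -0.91 and -0.66 in OLESA salt. The libraries of IL22 salt lay above those of IL22 control without overlap in 13 of the 14, against 14.2% of the tested features. IL22 control lay below OLESA control without overlap in all 14, against 8.44%. In 8 genes IL22 salt lay above all other libraries, for which no share of the tested features was counted. The genes were chosen by a contrast of these same groups, so nothing further is read from this separation.

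In the 4 negative genes, salt raised the level in OLESA. The median salt response was 0.11 in IL22 and 3.09 in OLESA, and it was larger in size in OLESA for all 4. Relative to OLESA control, the median log2 CPM was 1.46, 1.23 and 1.39 in IL22 salt, 0.94, 1.39 and 1.15 in IL22 control, and 2.85, 2.88 and 3.41 in OLESA salt. OLESA control lay below all other libraries in the 4 genes, and OLESA salt lay above all other libraries in 3 of them. No share of the tested features was counted for these patterns. They too are parts of the contrast that defined the genes, so nothing further is read from them.

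**Figure D4:**
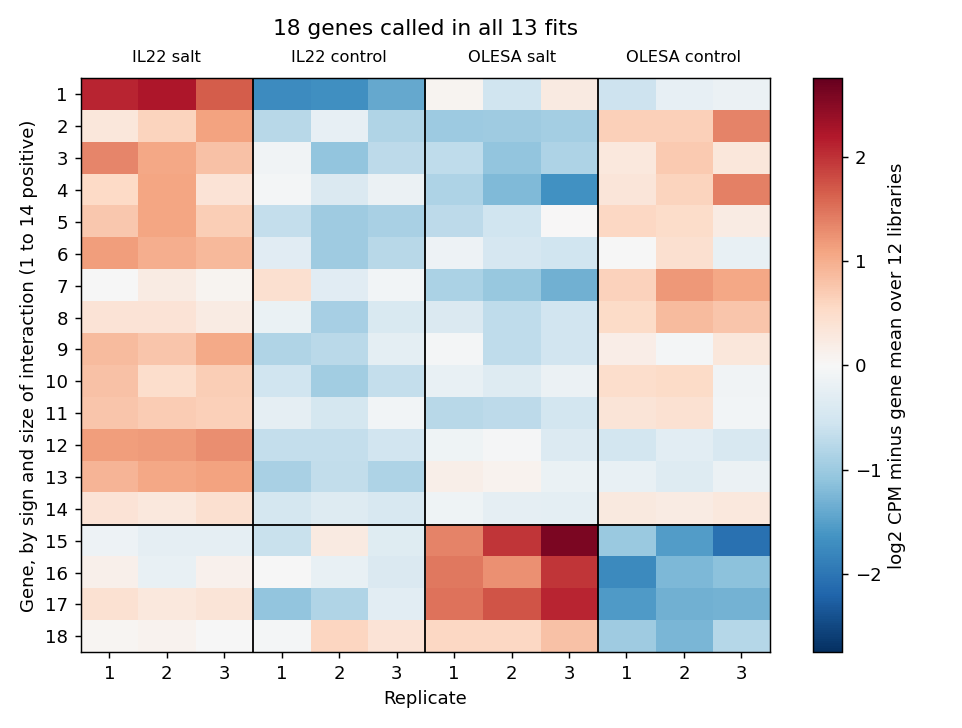
Heat map of log2 CPM minus the mean of the gene over 12 libraries (colour scale) for the 18 genes called in all 13 fits, with libraries in columns by group and replicate and genes in rows, 1 to 14 positive and 15 to 18 negative, each ordered by the size of the interaction. IL22 salt is high in most rows of the upper part, and OLESA salt is high and OLESA control low in all 4 rows of the lower part.

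By the rule for named genes, 4 locus IDs are printed, the 2 positive and the 2 negative ones with the largest interaction among the 18 genes at a mean log2 CPM of 3 or more. Os05g0355400, on Chromosome 5, had 120.8, 132.4 and 88.9 CPM in IL22 salt and 8.39, 8.58 and 10.5 CPM in IL22 control. In OLESA it had 29.8, 19.1 and 33.5 CPM with salt and 19.0, 23.9 and 25.1 CPM without. The IL22 salt libraries were above all others and the IL22 control libraries below all others, whereas both OLESA groups overlapped. Its salt response was 3.64 (SE 0.24, adjusted p = 2.58e-05) in IL22 and 0.28 (SE 0.22, adjusted p = 0.375) in OLESA, and the interaction was 3.36 (SE 0.32, adjusted p = 0.00192, all from edgeR's quasi-likelihood test). IL22 was higher than OLESA in salt, by 2.05 on the log2 scale (adjusted p = 0.000158, same test), and lower in control, at -1.31 (adjusted p = 0.00901, same test).

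Os01g0739500, on Chromosome 1, changed with salt in opposite directions. It had 133.5, 164.4 and 232.4 CPM in IL22 salt against 63.0, 91.3 and 60.2 CPM in IL22 control, and 53.5, 54.6 and 56.0 CPM in OLESA salt against 169.4, 170.0 and 278.0 CPM in OLESA control. Neither pair overlapped. The salt response was 1.31 (SE 0.25, adjusted p = 0.0102) in IL22 and -1.91 (SE 0.25, adjusted p = 0.000803) in OLESA, and the interaction was 3.22 (SE 0.35, adjusted p = 0.0051, all from edgeR's quasi-likelihood test). The mean was 176.7 ± 50.6 CPM in salt-treated IL22 and 205.8 ± 62.5 CPM in untreated OLESA (SD, n = 3 each), and these groups overlapped.

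Os02g0580900, on Chromosome 2, was up-regulated by salt in both genotypes and further in OLESA. It had 67.9, 61.6 and 64.7 CPM in IL22 salt against 23.8, 28.4 and 41.4 CPM in IL22 control, and 143.7, 169.0 and 217.6 CPM in OLESA salt against 17.2, 20.3 and 20.6 CPM in OLESA control. The salt response was 1.05 (SE 0.21, adjusted p = 0.0121) in IL22 and 3.19 (SE 0.22, adjusted p = 4.6e-05) in OLESA, and the interaction was -2.13 (SE 0.29, adjusted p = 0.00871, all from edgeR's quasi-likelihood test). IL22 was lower than OLESA in salt, at -1.45 (adjusted p = 0.00169, same test), and the difference in control, 0.69, did not pass (adjusted p = 0.125, same test).

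Os07g0540100, on Chromosome 7, had 22.1, 22.8 and 21.2 CPM in IL22 salt against 20.6, 32.4 and 27.6 CPM in IL22 control, and these groups overlapped. In OLESA it was up-regulated, with 31.7, 31.9 and 37.4 CPM in OLESA salt against 10.7, 8.92 and 12.4 CPM in OLESA control. The salt response was -0.28 (SE 0.19, adjusted p = 0.411) in IL22 and 1.66 (SE 0.19, adjusted p = 0.000391) in OLESA, and the interaction was -1.94 (SE 0.27, adjusted p = 0.00871, all from edgeR's quasi-likelihood test). The genotypes differed in control, where IL22 was higher by 1.33 (adjusted p = 0.0021, same test), and the difference in salt, -0.61, did not pass (adjusted p = 0.097, same test).

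Leaving out 1 library moved the interaction of Os05g0355400 between 3.15 and 3.52, that of Os01g0739500 between 2.97 and 3.43, that of Os02g0580900 between -2.30 and -1.88 and that of Os07g0540100 between -2.10 and -1.78. The largest adjusted p over these fits was 0.0127, 0.0237, 0.0401 and 0.0369 in the same order of genes (edgeR quasi-likelihood test).

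**Figure D5:**
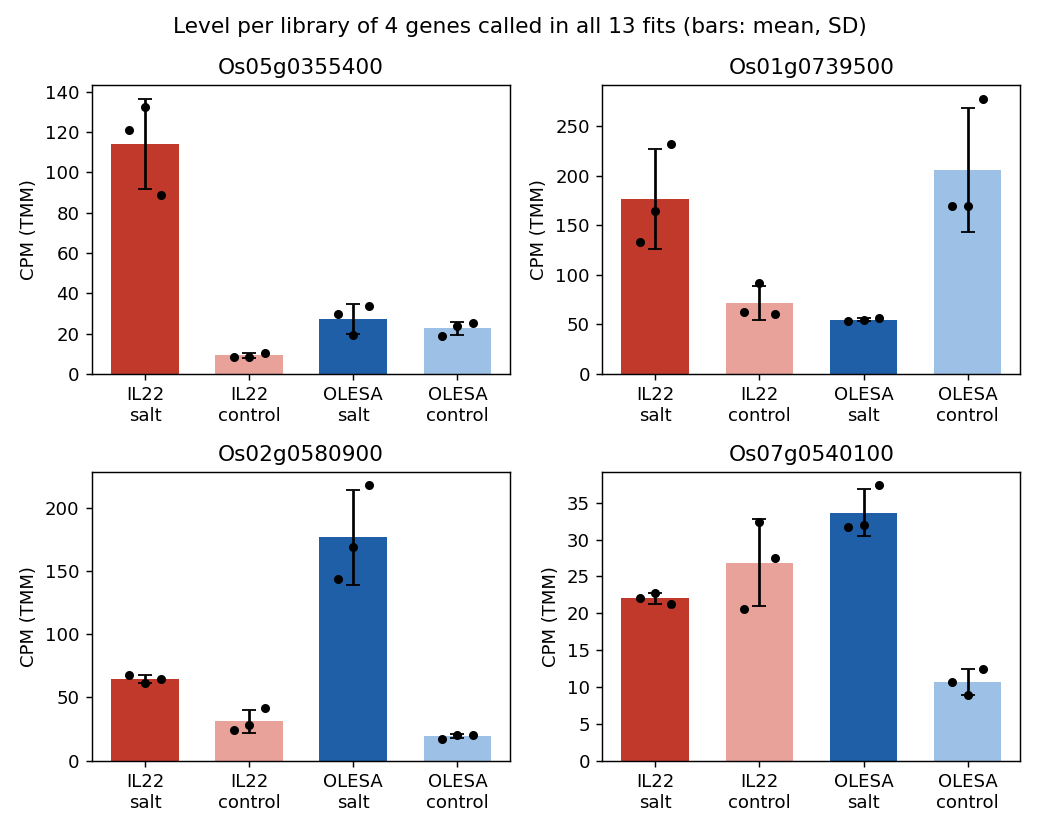
Expression in CPM (y axis, from 0) of Os05g0355400, Os01g0739500, Os02g0580900 and Os07g0540100 in the 4 groups, with bars for the mean, error bars for the SD and points for the 3 libraries of each group. Os05g0355400 is at 88.9 to 132.4 CPM in IL22 salt and at 33.5 CPM or less elsewhere, and Os02g0580900 is at 143.7 to 217.6 CPM in OLESA salt and at 67.9 CPM or less elsewhere.

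Some of the other 14 of the 18 genes are described here by their place in the heat map, and the rest are shown there only. The gene in place 3 had the highest level, with 1086, 900.1 and 756.3 CPM in IL22 salt against 400.8, 202.8 and 259.0 CPM in IL22 control, and with 265.7, 201.7 and 238.7 CPM in OLESA salt against 525.9, 706.7 and 533.9 CPM in OLESA control. Like Os01g0739500 it was thus up-regulated in IL22 and down-regulated in OLESA without overlap, with salt responses of 1.67 (SE 0.24) and -1.32 (SE 0.24) and an interaction of 2.99.

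The genes in places 12 and 13 were up-regulated in IL22 with little movement in OLESA. Gene 12 had 125.9, 127.5 and 137.2 CPM in IL22 salt against 35.8, 35.6 and 39.4 CPM in IL22 control, and 52.1, 55.6 and 43.6 CPM in OLESA salt against 39.99, 46.4 and 41.4 CPM in OLESA control. Gene 13 had 192.3, 208.8 and 216.1 CPM in IL22 salt against 53.8, 62.6 and 55.9 CPM in IL22 control, and 111.8, 107.5 and 88.8 CPM in OLESA salt against 87.1, 78.3 and 89.3 CPM in OLESA control. Salt responses in IL22 were 1.82 (SE 0.14) and 1.84 (SE 0.14), and those in OLESA were 0.24 (SE 0.14) and 0.27 (SE 0.14), neither of which passed (adjusted p of 0.215 and 0.166, edgeR quasi-likelihood test).

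The gene in place 7 is the 1 positive gene in which the IL22 groups overlapped. It had 21.6, 25.5 and 22.9 CPM in IL22 salt against 29.4, 17.7 and 20.7 CPM in IL22 control, and 11.8, 10.5 and 8.60 CPM in OLESA salt against 33.9, 49.997 and 45.9 CPM in OLESA control. Its salt response was 0.04 (SE 0.21) in IL22 and -2.07 (SE 0.22) in OLESA, so that the decrease in OLESA made the interaction of 2.11.

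The negative genes in places 15 and 16 were expressed at a low level. Gene 15 had 5.86, 5.42 and 5.39 CPM in IL22 salt against 4.19, 7.70 and 5.08 CPM in IL22 control, and 16.9, 25.6 and 39.4 CPM in OLESA salt against 3.13, 2.14 and 1.46 CPM in OLESA control. Gene 16 had 6.14, 4.84 and 6.04 CPM in IL22 salt against 5.51, 4.81 and 4.17 CPM in IL22 control, and 15.3, 13.48 and 22.02 CPM in OLESA salt against 1.57, 2.28 and 2.46 CPM in OLESA control. The IL22 groups overlapped in both, and salt responses in OLESA were 3.62 (SE 0.37) and 3.00 (SE 0.27). The lowest values rest on few counts, with 29 to 46 counts in the OLESA control libraries for gene 15 and 23 to 49 for gene 16.

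Calls were more frequent among highly expressed genes. Of the 6920 features with the lowest mean log2 CPM, 127 were called (1.84%), against 356 of the 6920 in the middle (5.14%) and 553 of the 6920 with the highest mean (7.99%). The share that held its direction was 67.9%, 76.1% and 80.7% from low to high, and of the 18 genes 0, 4 and 14 fell into these classes.

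Interaction genes were spread over the 12 chromosomes. The share called ran from 4.14% on Chromosome 4 to 5.94% on Chromosome 10, with 163 of 3020 features (5.40%) on Chromosome 1 and 141 of 2758 (5.11%) on Chromosome 3. In windows of 50 tested genes in ID order, the median was 2 called genes and the maximum 9, over 407 windows. Earlier results of these data had marked runs of genes that differ between the genotypes, 2 on Chromosome 1 and 1 on Chromosome 3. The first run on Chromosome 1 held 16 called genes of 400 (4.00%), the second held 34 of 450 (7.56%) and the run on Chromosome 3 held 12 of 150 (8%), against 974 of 19760 features (4.93%) outside these runs. Thus 62 of the 1036 called genes and 1 of the 18 lay inside the runs. No test was made of these shares. The 18 genes lay on 10 of the 12 chromosomes, and Os01g0739500 stood 7 tested genes in ID order from the negative gene in place 15.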

How the data were processed

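Leaf RNA of IL22 and OLESA with and without salt was sequenced in 12 libraries of stranded mRNA. The deposited values are raw counts of fragments per feature that the authors made before any normalization, with replicates kept apart. Per the submitters' processing notes, the tools were bcl2fastq 2.20, cutadapt 1.11, STAR 2.5.2b and featureCounts 1.5.1 with the build IRGSP-1.0. For fragments with several matches, the counting was not given in the sources used here, and genes that have a near-identical copy are therefore uncertain. Fragments from *indica* segments were counted on *japonica* gene models, which can lower the counts of a gene there in IL22 in both conditions. The authors then applied HTSFilter, TMM, FPKM and edgeR to the counts.

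Counts were fitted with edgeR 4.0.16 in R 4.3.3. Of 36844 features, 6937 had no count, and filterByExpr (minimum count 10, minimum total 15) kept 20760. The quasi-likelihood fit, its dispersions and the TMM factors used 12 libraries with 1 mean per group. The contrast was the salt response in IL22 minus that in OLESA, and p-values were adjusted by Benjamini-Hochberg over all tested features in each of 5 contrasts. SE values were derived from the F statistic, and CPM values are scaled by TMM, with a prior count of 2 for log2 CPM. The fit was repeated without each library, with the tested features kept. Library totals of 11505396 to 23578477 set the counting precision.

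Alternatives were RLE and upper-quartile factors, other filters and thresholds, the likelihood ratio test, a robust fit, a replicate block, limma 3.58.1 (voom with sample weights) and DESeq2 1.42.0. The steps were run on simulated counts in which only the IL22 salt group was changed. No simulated library was made to stand apart from its group, so this run does not bear on replicate 1 of IL22 control. The members, the runs of genes and the classes were chosen with earlier results of these data known. Named genes were the first 2 positive and first 2 negative ones by the number of reduced fits that call them and then by the size of the interaction, at a mean log2 CPM of 3 or more. The rule would have named 12 of each if the IDs had been paired with names. Gene lists, cell type markers and the FPKM criterion were not used, as 1 ID matched the gene table of assembly ASM3414082v1. Samples in each group were taken from the line and treatment labels.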

Additional observations from a re-analysis of the deposited data

Results flagged for a closer look

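The salt response of IL22 and that of OLESA differed by the test of the difference itself in 1036 features (edgeR quasi-likelihood test, adjusted p of 0.05 or less). The 4 named genes were chosen by this same test, so it adds no separate support for them. Their interaction log2 FC was 3.36 for Os05g0355400, 3.22 for Os01g0739500, -2.13 for Os02g0580900 and -1.94 for Os07g0540100. With 3 libraries in a group, no test for a library far from its group was made.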

How the results depend on the processing

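Apart from the reduced fits, which were part of the rule, the sign of the 1036 called genes was the same under all alternatives in which they were tested. At an adjusted p of 0.05, the 18 genes called in all 13 fits were called by each alternative fit that tested them (14 of 14 with a mean of 25 CPM or more). At the stricter threshold of 0.01, the gene in place 7 was lost (adjusted p = 0.0109, edgeR quasi-likelihood test). The number of calls was 1036 with the quasi-likelihood test, 2221 with the likelihood ratio test, 2515 with DESeq2 and 6522 with voom and sample weights, which gave replicate 1 of IL22 control a weight of 0.208. It was 5047 with a p of 0.05 before adjustment and a log2 FC beyond 0.5, 17 at an adjusted p of 0.01, and 2560 at an adjusted p of 0.1, a level added after seeing the data. It stayed between 887 and 1351 with other scaling factors, filters and the robust fit. With upper-quartile factors 39.0% of the calls were positive, against 28.7% with TMM. With adjusted p for the salt responses, the genes with opposite responses numbered 20 negative (297 without adjustment) and 11 positive (70). The cause of these shifts was not tested.

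Leaving out 1 library gave 19 to 4971 calls for the interaction, 344 to 3141 for salt in IL22 (1074 with all libraries), 1960 to 5820 for salt in OLESA (4487), 197 to 1787 for IL22 against OLESA in salt (592) and 158 to 4011 in control (286). Genes with opposite responses ran from 122 to 491 among the negative and from 43 to 96 among the positive ones. A block for the replicate number gave 23 calls, 15 positive and 8 negative, the 18 genes among them. Of 18 same-number pairs, 4 had a correlation of their deviations over 0.1 (range -0.326 to 0.200). Deviations from a mean of 3 libraries are tied to each other, so these values do not settle whether the numbers pair the samples. The interaction counts beyond 59 came without replicate 1 of IL22 control (4971), replicate 3 of OLESA salt (1531) or replicate 1 of OLESA control (848), so the length of the list depends on single libraries.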
